A study of Danio rerio with 12 samples.

Results

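The genes described here are lens crystallins, lens membrane proteins, phototransduction proteins, and retinoid-handling proteins of the zebrafish eye, followed in embryos and larvae kept with or without lead (Pb). They were chosen by the start of the gene symbol (crya, cryb, cryg, mip, lim2, bfsp, opn, rho alone or with a digit, gnat, gngt, pde6, arr3, sag, grk1, grk7, rcvrn, guca, rpe65, rlbp, rbp, rdh, prph2, and tulp). Of 37157 targets on the array, 2663 had a gene symbol, and 38 of these were members. The 38 were 20 crystallins (1 alpha, 5 beta, and 14 gamma), 4 lens membrane proteins, 8 phototransduction genes, 3 retinoid genes, and 3 others. Those 3 have symbols that share the letters rbp but belong to none of these classes. No named target matched bfsp, rho, gnat, gngt, arr3, rcvrn, rpe65, rlbp, prph2, or tulp, so the visual opsins and transducins were not analysed here and the set represents phototransduction only in part.

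Total RNA came from whole embryos or larvae of the wild-type AB strain, 50 to a pool, and each pool was 1 biological replicate on 1 one-color Cy3 oligonucleotide array. The 4 groups had 3 arrays each: 72 hr postfertilization (hpf) control, 72 hpf Pb, 120 hpf control, and 120 hpf Pb. Control water held 0 ppb Pb, and treated water held 100 ppb Pb, given as lead acetate from about 1 hpf until collection. The eyes were not dissected, so eye RNA was measured against the RNA of the whole body, and in such bulk samples fewer cells of a type and less RNA per cell cannot be told apart.

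As background, crystallins are the abundant soluble proteins of lens fiber cells. The alpha crystallins are small heat shock proteins, and the beta and gamma crystallins share a common fold. Fish lenses are rich in gamma M crystallins, a methionine-rich class encoded by many near-identical genes. In photoreceptors, light-activated opsin drives a G protein and phosphodiesterase 6, which lowers cyclic GMP. Opsin kinases and arrestins then end the response, calcium-binding proteins adjust guanylate cyclase, and retinol dehydrogenases and retinol-binding proteins handle the spent chromophore.

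The deposited probe intensities had medians of 376 to 670 per array, and control and Pb arrays of the same replicate number had nearly the same median, whereas different numbers did not. Values below are log2 intensities after quantile normalization of the 12 arrays and averaging over the probes of a target, up to 12 in number. Each comparison was tested with limma across all 37157 targets, with p-values adjusted by Benjamini-Hochberg and a threshold of 0.05. With 3 arrays a group, precision was limited. In both comparisons of Pb with control, the 95% interval of a member's log2 change reached a median of 0.5 to each side (0.37 to 1.05).

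Between 72 and 120 hpf in controls, 3 members rose past the threshold and none fell. These were crygn1, a gamma N crystallin, rdh8b, a retinol dehydrogenase, and crybgx, a crystallin of the beta group. This was 7.89% of the members, beside 4.75% of all targets called in this comparison (3.61% higher and 1.14% lower). In the Pb arrays, 2 members rose past the threshold, crygn1 and rdh8b (5.26%, beside 2.96% of all targets, 2.23% higher and 0.729% lower). The log2 change in controls was above 0 for 32 of 38 members (84.2%), with a median of 0.24, beside 45.1% of all targets and a median of -0.04. In the Pb arrays it was above 0 for 28 members, with a median of 0.11, beside 44.6% of all targets and a median of -0.05. Control arrays of the 2 stages did not overlap for 16 members (42.1%), 13 of them higher and 3 lower at 120 hpf, beside 30.7% of all targets (15.1% higher and 15.6% lower). In the Pb arrays 8 members did not overlap (21.1%), 6 of them higher and 2 lower, beside 15% of all targets (7.97% higher and 6.98% lower).

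**Figure D1:**
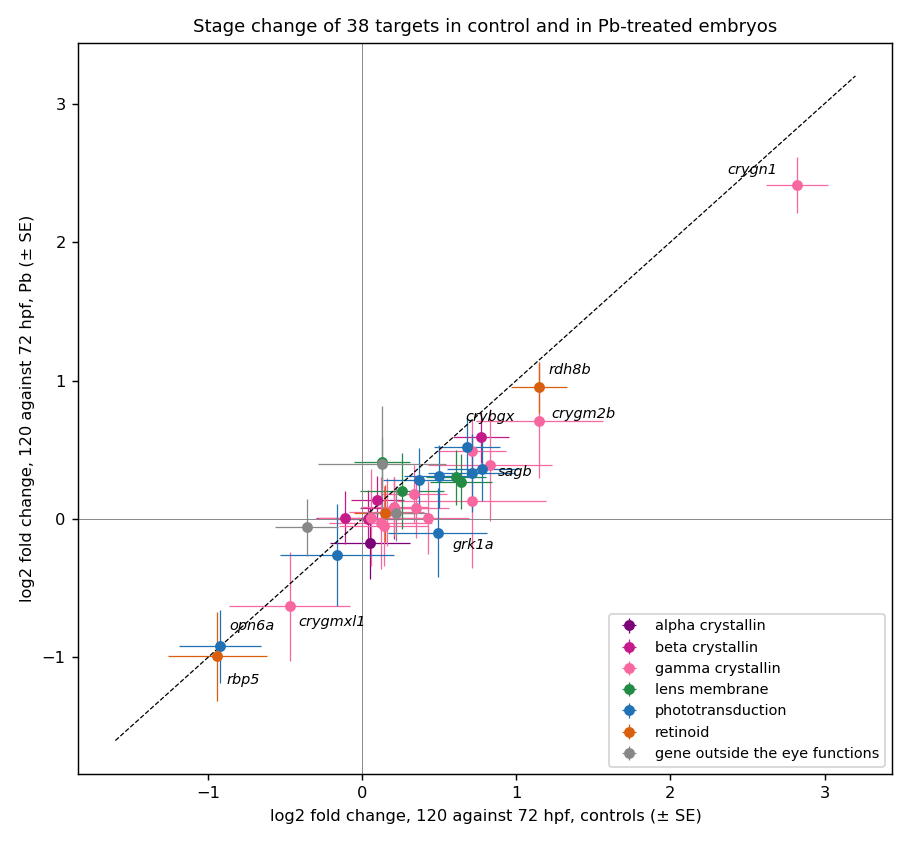
Log2 fold change from 72 to 120 hpf for the 38 targets, in controls (horizontal axis) and in Pb arrays (vertical axis), with bars of 1 SE and colors for gene class. The dashed line marks equal change; crygn1 stands alone at 2.82 and 2.41, rdh8b follows at 1.15 and 0.95, and opn6a and rbp5 lie at the low end.

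The control and the Pb comparison share no array. They are not independent, as same-numbered control and Pb arrays deviated together at 120 hpf. Of the 38 members, 32 had the same sign in both, and the share over all targets was not computed. Over the 38 members the 2 sets of changes had a Pearson r of 0.944, with crygn1 far from the rest at 2.82 and 2.41. Over all targets r was 0.851. These are descriptions across genes, which are not independent replicates. The signed change in controls lay above that in Pb arrays for 32 of 38 members, beside 52.6% of all targets, which is the same quantity as the difference of the Pb effects given below.

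Among the gamma crystallins, crygn1 had the largest stage change of the 38 members in both comparisons. Its log2 intensities in 72 hpf controls were 9.03, 8.74, and 9.37, and in 120 hpf controls 11.79, 11.79, and 12.01. In Pb arrays they were 9.62, 9.21, and 9.49 at 72 hpf and 11.79, 11.82, and 11.93 at 120 hpf. All 6 arrays at 72 hpf lay below all 6 at 120 hpf. The rise was 7.05-fold in controls (log2 2.82, SE 0.202, limma adjusted p = 9.69e-06) and 5.3-fold with Pb (log2 2.41, SE 0.202, limma adjusted p = 4.29e-05). All 11 crygn1 probes rose in both, by 2.26 to 3.27 on the log2 scale in controls and by 2.12 to 2.75 with Pb. Of these, 10 start between 343 and 448 nt, each within 60 nt of another, so they overlap their neighbors in one region. The remaining probe, near the start of the target, rose by 2.45 and 2.59.

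The other gamma N crystallin, crygn2, did not pass the test. Its control values were 13.48, 13.52, and 13.6 at 72 hpf and 13.98, 13.9, and 13.73 at 120 hpf, which do not overlap (log2 0.34, SE 0.209, limma adjusted p = 0.469). With Pb the values were 13.83, 13.62, and 13.14 at 72 hpf and 13.88, 13.78, and 13.46 at 120 hpf, and these overlap. Over all 12 arrays, the measured stage change of crygn1 was 2.35 above that of crygn2 on the log2 scale, a value that depends on the brightness of the crygn2 probes described below. For a test, the mean of each control and Pb array of one number was taken as a unit. This was done at 72 hpf too, although the arrays of number 3 did not deviate together there. The exact permutation test of the difference between crygn1 and crygn2 (two-sided) gave p = 0.1. This is the smallest p that 3 against 3 units allow, so the design could not reach the threshold. These genes were 1 of 11 pairs of related genes compared in this way, all chosen after the data were seen.

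**Figure D2:**
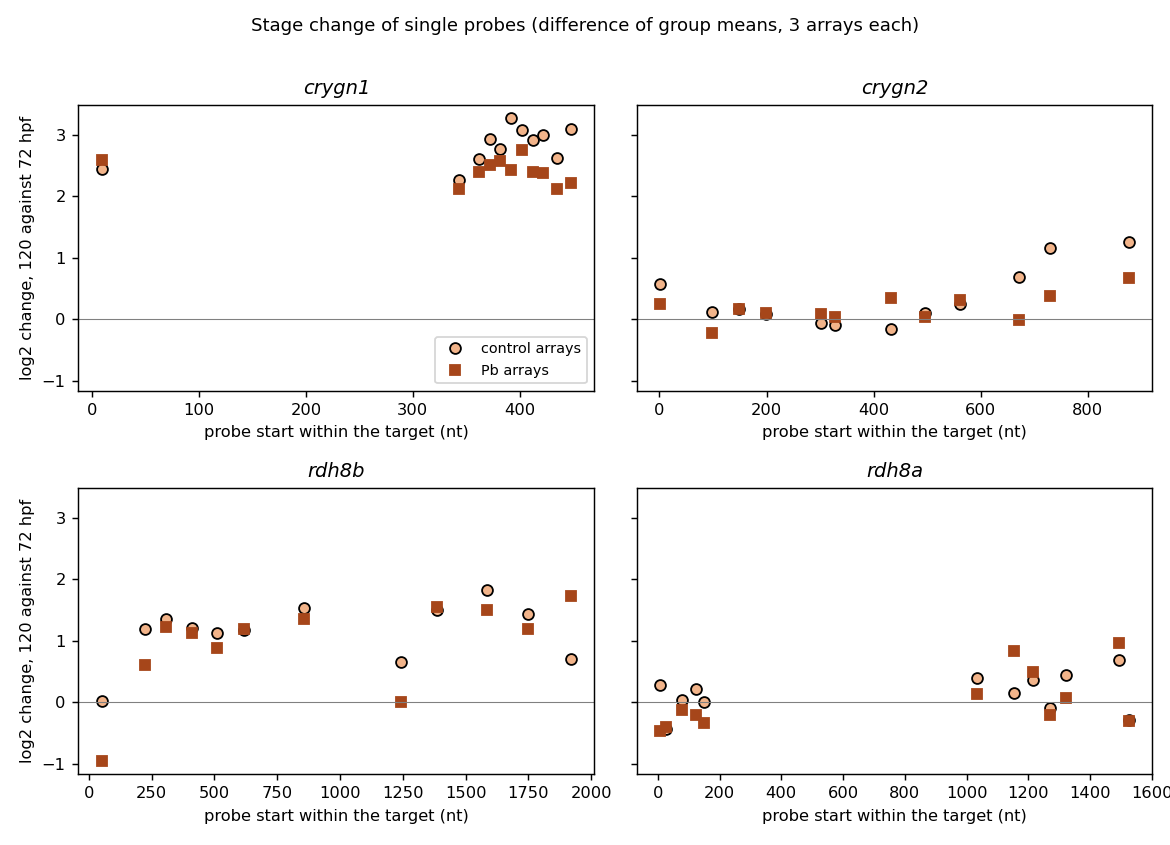
Change from 72 to 120 hpf of each probe of crygn1, crygn2, rdh8b, and rdh8a (log2, vertical axis) against the start of the probe within its target (nt), for control arrays (circles) and Pb arrays (squares). The 11 crygn1 probes all lie above 2, and in crygn2 the probes near the end rise to 1.25 while those in the middle stay near 0.

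The probes of crygn2 did not behave alike. The 8 with a mean log2 intensity of 14 or more changed by -0.16 to 0.24 in controls, and the 4 dimmer ones had changes of 0.58 to 1.25, all below the 2.26 to 3.27 of the crygn1 probes. With Pb the ranges were -0.23 to 0.34 and -0.02 to 0.67. Brightness here is the mean log2 intensity of a probe after normalization, and it is no measure of RNA level. The highest deposited value per array was 63331 to 65311. Probes of cryba1l1, cryba2a, crybb1, crygm2d2, crygm2d3, crygm2d5, and crygn2 shared a highest deposited value of exactly 64934. This was also the maximum of both 72 hpf arrays of replicate 1, so bright crystallin probes were tied at the upper end there. Saturation of the scanner was not tested. The same split, set after the data were seen, over all crystallin probes gave a median control change of 0.1 for 112 brighter probes and of 0.59 for 117 dimmer ones (0.55 without crygn1). With Pb the medians were 0.11 and 0.22. Bright probes of crybgx did show a change, as all 7 brighter ones lay higher at 120 hpf in controls (median 0.51, 0.43 to 0.97), and the 5 dimmer ones had a median of 0.95. Of the 20 crystallin targets, 10 were brighter than 99% of all targets, and no other member was. In crybb1, 22.2% of probe values were over 50000, whereas crygn1 had none. The part that the upper end of the intensity scale plays in the small changes of bright crystallins was not tested.

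**Figure D3:**
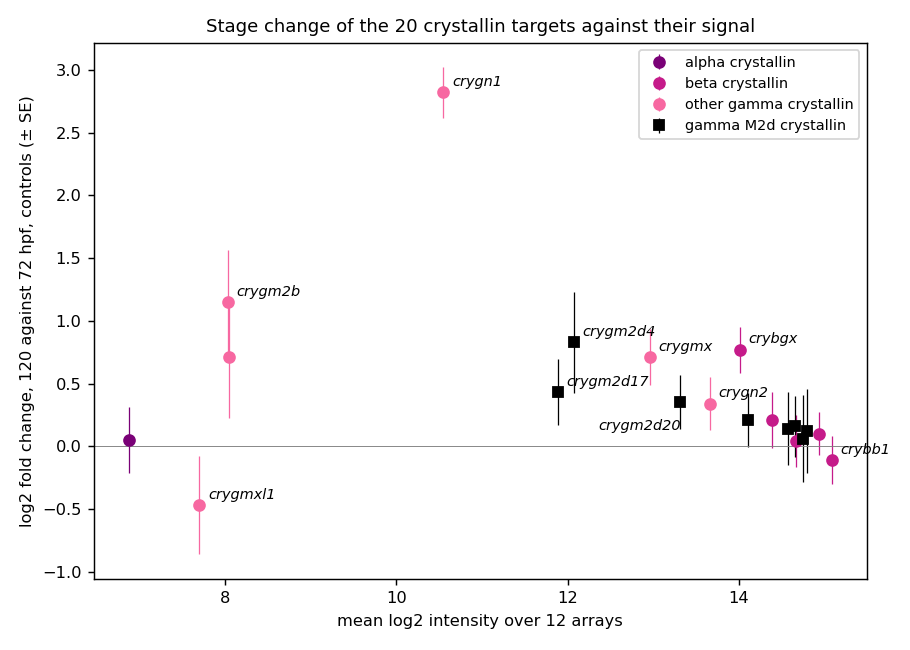
Stage change in controls (log2, bars of 1 SE) of the 20 crystallin targets against their mean log2 intensity over 12 arrays. The brightest targets lie near 0, from -0.11 for crybb1, whereas crygn1, of middling brightness, stands at 2.82.

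Of the 5 beta group members, crybgx rose and 4 did not pass the test. The crybgx control values were 13.66, 13.44, and 13.59 at 72 hpf and 14.48, 14.13, and 14.37 at 120 hpf, without overlap. The rise was 1.7-fold (log2 0.77, SE 0.183, limma adjusted p = 0.0323). With Pb the values were 14, 13.7, and 13.67 at 72 hpf and 14.52, 14.24, and 14.37 at 120 hpf, again without overlap, but the test was not passed (log2 0.59, SE 0.183, limma adjusted p = 0.122). All 12 probes of crybgx rose in both. Leaving out any of 5 control arrays ended the control call, with limma adjusted p of 0.0873 to 0.141. The remaining beta crystallins, cryba1l1, cryba2a, cryba2b, and crybb1, changed by -0.11 to 0.21 in controls.

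The gamma M crystallins were a mixed group. Changes in controls were above 0 for all 8 gamma M2d targets, with a median of 0.18 (0.06 to 0.83), but none passed the test. Among these 8, the change was smaller where the target was brighter (Spearman rho -0.929 across targets that share sequence and arrays, given as a description). The largest change was that of crygm2d4, from 11.94, 11.39, and 12.14 to 12.75, 12.65, and 12.56 in controls, without overlap (log2 0.83, SE 0.403, limma adjusted p = 0.332). However, 8 of its 10 probes start within the first 22 nt and read nearly the same stretch. The other 2, both bright, changed by -0.15 and 0.27. They are also the only probes within 500 nt of the last one, and the change with these alone was 0.06. The crygm2d genes lie in one cluster in which neighboring members have 0 to 6 other genes between them, and probes for one gene may bind transcripts of another. The related crygmx was 12.48, 12.67, and 12.56 at 72 hpf and 13.63, 13.14, and 13.07 at 120 hpf in controls (log2 0.71, SE 0.222, limma adjusted p = 0.0999). Its dim relative crygmxl1 had the opposite sign, at -0.47 in controls and -0.63 with Pb (SE 0.392, limma adjusted p = 0.616 and 0.522). The arrays of crygmxl1 overlapped in both comparisons. The stage changes of crygmx and crygmxl1 differed by 1.15 (exact permutation over 3 against 3 units, p = 0.2). The dim crygm2b had a control change of 1.15 (SE 0.414, limma adjusted p = 0.163), and its 120 hpf control arrays spread from 7.86 to 9.21. For crygm2a, also dim, the control change was 0.71 (SE 0.482, limma adjusted p = 0.521), with overlap. The only alpha crystallin measured, cryabb, a small heat shock protein, changed by 0.05 in controls and -0.17 with Pb.

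None of the 4 lens membrane genes passed limma's adjusted test between stages (2 in controls and 1 with Pb had an unadjusted p under 0.05), and all 4 changes were above 0 in both comparisons. The 3 lim2 genes encode lens intrinsic membrane proteins of fiber cells. In controls lim2.5 was 10.46, 10.54, and 10.8 at 72 hpf and 11.18, 11.38, and 11.17 at 120 hpf, without overlap (log2 0.64, SE 0.201, limma adjusted p = 0.102). The control change of lim2.3 was 0.61 (SE 0.197, limma adjusted p = 0.111), again without overlap, and that of lim2.2 was 0.26. For mipa, the water channel aquaporin 0 of fiber cells, the change was 0.13 in controls and 0.41 with Pb (limma adjusted p = 0.783 and 0.306), where 1 probe at 351 nt changed by 2.2 with Pb and the other 11 by a mean of 0.25.

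Of the 8 phototransduction genes, none passed the test in either stage comparison, while 5 in controls and 2 with Pb had an unadjusted p under 0.05 (16.6% and 14.5% of all targets had). The median change of the 8 was 0.49 in controls and 0.29 with Pb. The 2 rod arrestin genes both had changes above 0. In controls sagb was 11.71, 11.65, and 11.68 at 72 hpf and 12.46, 12.57, and 12.36 at 120 hpf (log2 0.78, SE 0.232, limma adjusted p = 0.0817). These arrays did not overlap, and all 12 sagb probes rose. The change of saga was 0.71 (SE 0.281, limma adjusted p = 0.211). With Pb the changes were 0.36 for sagb and 0.33 for saga.

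The cone opsin kinase gene grk7b was 6.93, 7.21, and 7.02 at 72 hpf and 7.63, 8.11, and 7.47 at 120 hpf in controls, without overlap (log2 0.68, SE 0.212, limma adjusted p = 0.099). For the related opsin kinase gene grk1a the change was 0.49 in controls and -0.1 with Pb, and the arrays overlapped in both. The change of pde6hb, an inhibitory subunit of cone phosphodiesterase, was 0.5 in controls (SE 0.228, limma adjusted p = 0.294). The guanylate cyclase regulators guca1ab.1 and guca1g had changes of 0.37 and -0.16 in controls and 0.28 and -0.26 with Pb.

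The opsin family gene opn6a had the opposite sign to most of this group. Its values were 10.57, 10.35, and 10.59 in 72 hpf controls and 9.37, 10.21, and 9.17 in 120 hpf controls. With Pb they were 10.6, 10.39, and 10.6 at 72 hpf and 9.39, 9.99, and 9.46 at 120 hpf. Neither comparison had overlap, and replicate 2 was the highest at 120 hpf in both treatments. The log2 change was -0.92 in controls (SE 0.265, limma adjusted p = 0.0739) and -0.92 with Pb (SE 0.265, limma adjusted p = 0.0938). Of 12 probes, 11 were lower at 120 hpf in controls and 12 with Pb. Leaving out each array in turn gave control changes of -1.23 to -0.71, with a limma adjusted p of up to 0.324. Only without 120 hpf control replicate 2, the highest of its group, was the test passed (-1.23, limma adjusted p = 0.0109).

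Of the 3 retinoid genes, rdh8b rose in both stage comparisons. It encodes a retinol dehydrogenase, a family that in mammals includes the photoreceptor enzyme reducing all-trans retinal. Its values were 8.33, 8.73, and 8.59 in 72 hpf controls and 9.54, 9.88, and 9.68 in 120 hpf controls, and with Pb 8.85, 8.9, and 8.68 and then 9.87, 9.75, and 9.68. All 6 arrays at 72 hpf lay below all 6 at 120 hpf. The rise was 2.21-fold in controls (log2 1.15, SE 0.182, limma adjusted p = 0.00276) and 1.94-fold with Pb (log2 0.95, SE 0.182, limma adjusted p = 0.0128). Without 120 hpf Pb replicate 1 the latter call was lost (log2 0.9, limma adjusted p = 0.0668), and on the deposited scale the control call was lost (log2 0.87, limma adjusted p = 0.326). Its close relative rdh8a changed by 0.15 in controls and 0.04 with Pb, with overlap in both. The stage change of rdh8b exceeded that of rdh8a by 0.96 (exact permutation over 3 against 3 units, p = 0.1, the smallest possible).

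A cellular retinol-binding protein gene, rbp5, lay lower at 120 hpf without passing the test. Its values were 12.1, 11.43, and 12.16 in 72 hpf controls and 10.74, 11.23, and 10.89 in 120 hpf controls (log2 -0.94, SE 0.321, limma adjusted p = 0.136). With Pb they were 12.38, 11.66, and 11.65 and then 10.5, 11.58, and 10.64 (log2 -0.99, SE 0.321, limma adjusted p = 0.143). The groups did not overlap in either, and all 12 probes were lower at 120 hpf in both. The 3 members outside the lens, phototransduction, and retinoid classes were the Notch pathway transcription factors rbpja and rbpjb and the RNA-binding protein gene rbpms2a. They changed by -0.36 to 0.22 in controls.

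**Figure D4:**
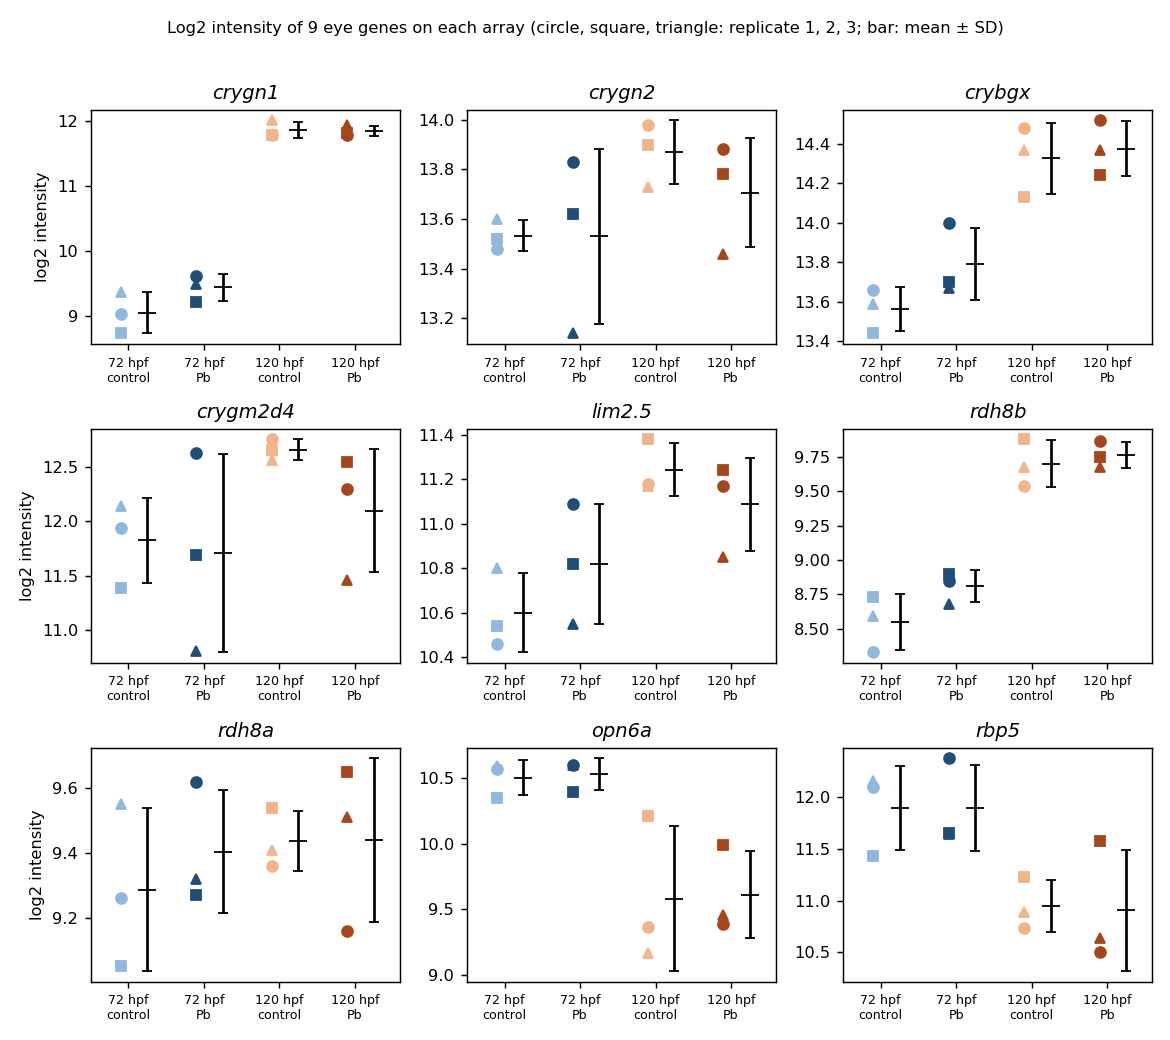
Log2 intensity on each array for 9 members, by group, with symbols for replicate numbers and the mean ± SD of 3 arrays beside them (the vertical axes differ and do not start at 0). The 6 arrays of each stage are apart for crygn1, crybgx, rdh8b, and opn6a. Those of crygn2, crygm2d4, lim2.5, rdh8a, and rbp5 overlap. The share of all targets with the stages apart in this way was not computed.

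The study's own question was whether 100 ppb Pb altered expression at each stage. No member passed the test at 72 or at 120 hpf, and no target on the array did (0% in both). The study called genes by other rules, a t-test with a minimum mean log2 ratio and that ratio in every replicate. By those rules it reported altered genes at both stages, so its calls and the 0% here rest on unlike thresholds. Limma without pairing of arrays gave an unadjusted p under 0.05 for 566 targets at 72 hpf (1.52%) and 112 at 120 hpf (0.301%). No member was among them. With the replicate number as a block, fixed or random, limma gave 381 or 379 such targets at 120 hpf. Whether members are among those is not given here. The smallest limma adjusted p of a member was 0.999 at 72 hpf and 1 at 120 hpf. At 72 hpf the log2 change was above 0 for 21 of 38 members (55.3%), with a median of 0.01, beside 55.7% and 0.04 for all targets. At 120 hpf it was above 0 for 11 of 38 (28.9%), with a median of -0.15, beside 50.9% and 0 for all targets.

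At 72 hpf, control and Pb arrays did not overlap for 3 members (7.89%), 1 higher and 2 lower with Pb, beside 4.7% of all targets (2.78% higher and 1.92% lower). For mipa the values were 12.07, 12.1, and 12.12 in controls and 11.72, 11.96, and 11.55 with Pb (log2 -0.36, SE 0.18, 95% interval -0.75 to 0.03). The probe at 351 nt changed by -2.33, the other 11 probes had a mean of -0.18, and median polish over the probes gave -0.19. The others were rbpjb at -0.46 and crybgx at 0.23. All 8 phototransduction genes had a change above 0 at 72 hpf (0.03 to 0.3, median 0.15), beside 55.7% of all targets. All except that of grk7b (0.3, SE 0.212) were below their standard error. Most of those smaller changes turned sign under some other processing or with an array left out. At 120 hpf 4 of the 8 phototransduction genes were above 0, with a median of -0.06. The crygn1 change at 72 hpf was 0.39 (SE 0.202, 95% interval -0.04 to 0.83), and at 120 hpf it was -0.02 (95% interval -0.46 to 0.42).

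At 120 hpf, control and Pb arrays did not overlap for 7 members (18.4%), beside 4.04% of all targets (2.22% higher and 1.82% lower), and all 7 were gamma M2d crystallins lower with Pb. All 8 gamma M2d targets had a change below 0, with a median of -0.42 (-0.55 to -0.23). As near-identical neighbors they are not 8 independent measurements. For crygm2d4 the values were 12.75, 12.65, and 12.56 in controls and 12.29, 12.54, and 11.46 with Pb (log2 -0.55, SE 0.403, 95% interval -1.43 to 0.32). This value turned to 0.07 with the probes within 500 nt of the last one. Those are the same 2 probes that lie beyond the first 22 nt, which changed by 0.32 and -0.19. For crygm2d17 the values were 12.26, 12.19, and 12.19 in controls and 11.88, 12.15, and 11.33 with Pb (log2 -0.43, SE 0.262, 95% interval -0.99 to 0.14). In both genes Pb replicate 3 was the lowest of the 6 arrays. Of the 12 crygm2d17 probes, 10 were lower with Pb. The 12 start between 13 and 67 nt, except for that at 266 nt, which changed by -0.02. Of the 12 crygm2d20 probes, 10 were lower with Pb. They start between 1 and 29 nt, except for that at 535 nt, which changed by -0.03. Both targets thus rest mostly on 1 short stretch. The dim crygm2a, outside the gamma M2d targets, had the lowest change of the 38 members. It was -0.58 (SE 0.482, 95% interval -1.62 to 0.47), and its arrays overlapped.

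Replicate number 3 had the lowest gamma M2d ratios at both stages. A control and a Pb array of one number are called a pair here because their deposited medians are nearly the same. At 72 hpf the arrays of number 3 did not deviate together. The median log2 ratio of the 8 gamma M2d targets, Pb over control, was 0.27, 0.11, and -0.83 in pairs 1, 2, and 3 at 72 hpf, and -0.15, -0.15, and -0.83 at 120 hpf. Leaving out only the Pb array of number 3 gave a median change of 0.1 at 72 hpf and -0.17 at 120 hpf. Without pair 3 the median change was 0.15 at 72 hpf, a sign opposite to that of all 3 pairs (-0.14), and -0.15 at 120 hpf. In pair 3 the ratio over all targets fell with mean signal, with Spearman rho -0.516 at 72 hpf and -0.329 at 120 hpf, and in pairs 1 and 2 rho was between -0.0553 and 0.222. Bright targets of other tissues had pair 3 ratios at 72 and 120 hpf of -0.52 and -0.53 for mylpfb, a muscle myosin light chain, and of -0.45 and -0.49 for acta1b, a muscle actin. For hbae3, a globin, they were -0.34 and -0.17, and for sncb, a synuclein of neurons, 0.16 and 0.28. The part of this signal trend in the crystallin values was not tested.

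**Figure D5:**
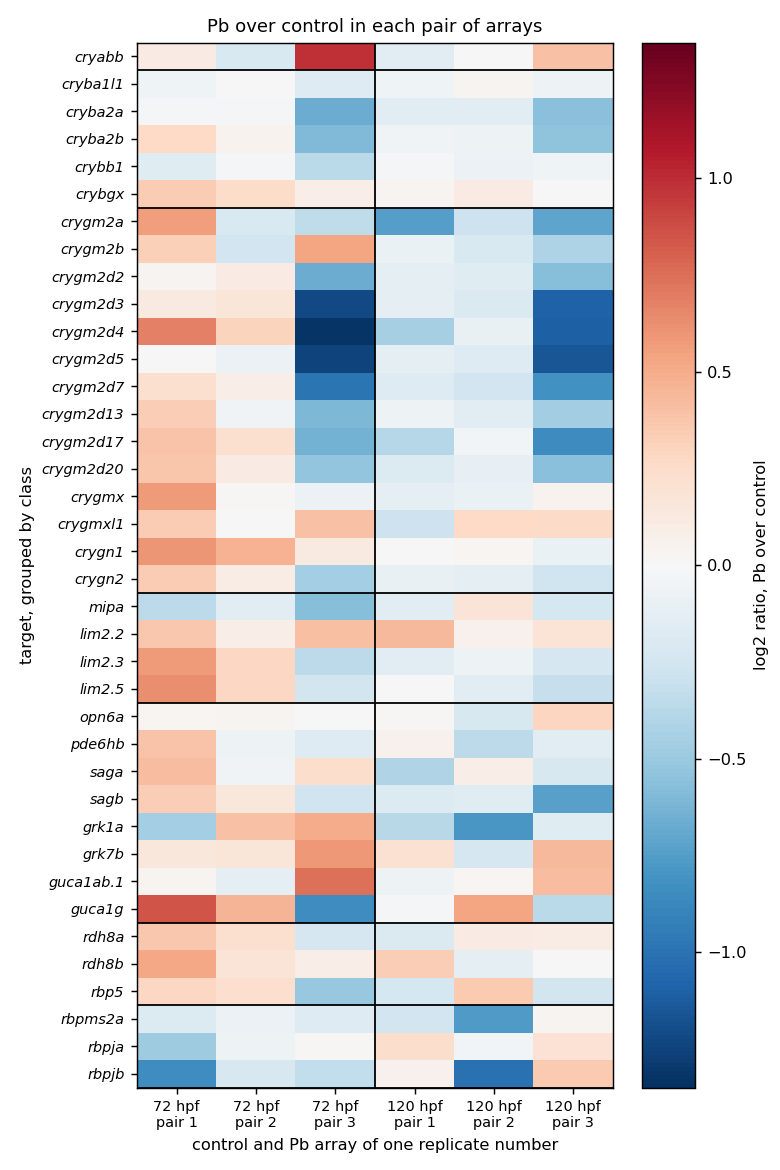
Log2 ratio of Pb over control for the 38 targets (rows, grouped by class) in each pair of arrays with the same replicate number (columns), in color. The gamma M2d rows are darkest in pair 3 at both stages, where their medians were -0.83.

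No member passed the test of a difference in the Pb effect between stages, and no target did (limma, 0 of 37157 called, and 75 targets, 0.202%, with an unadjusted p under 0.05, no member among them). The difference, 120 less 72 hpf, was below 0 for 32 of 38 members, with a median of -0.16, beside -0.02 for all targets. The widest differences among the phototransduction genes were -0.59 for grk1a (SE 0.455) and -0.43 for sagb (SE 0.327).

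Other eye genes on the array gave no call in any of these comparisons. Of the listed lens genes 2 of 33 were measured, foxe3, a lens transcription factor, and birc7. Of the listed photoreceptor genes 11 of 68 were measured, and of other retinal genes 4 of 37 (pmela, gabrr2a, pou4f3, and dct). As whole bodies were measured, the RNA of genes on these lists need not come from the eye. In controls the stage change was above 0 for 0 of the 2 lens genes (median -0.35), 5 of the 11 photoreceptor genes (median -0.18), and 3 of the 4 retinal genes (median 0.19). With Pb it was above 0 for 0, 5, and 3 of them. The changes furthest from 0 among the photoreceptor genes in controls were those of rom1b and crb2b. The gene rom1b, which encodes a photoreceptor disc membrane protein, changed by 1.02 in controls (SE 0.297, limma adjusted p = 0.0775) and 0.71 with Pb. The polarity gene crb2b changed by -1.25 in controls (SE 0.381, limma adjusted p = 0.0921) and -0.67 with Pb. For tissues outside the eye, hbae3 fell by 1.01 in controls (limma adjusted p = 0.0253) and by 0.99 with Pb (limma adjusted p = 0.0361), whereas the 4 skeletal muscle genes and sncb gave no call.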

How the data were processed

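The authors extracted array images with NimbleScan, quantile normalized the signals, and named the Robust Multichip Average (RMA) for gene calls. Their deposited table holds linear intensity per probe (385000 probes, 12 arrays), not yet summarized by target. The median was nearly the same in a control array and the Pb array of the same number (427 and 424 for number 3 at 72 hpf). Medians differed more between numbers, and the maxima could differ within a number (65311 and 63720 for number 2 at 72 hpf). Versions of these tools are not given in the sources used here.

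Here the intensities were log2 transformed, normalized by quantiles across the 12 arrays, and averaged over probes. No target was filtered out and no background was subtracted. limma 3.58.1 (lmFit, eBayes) in R 4.3.3 was fitted to the 4 group means without a replicate block, with Benjamini-Hochberg adjustment over all targets. Targets were named through the platform annotation (2626) or current RefSeq transcripts (37), and gene order came from RefSeq. The methods' t-test, run as unpaired, blocks, other scalings, and left-out arrays were alternatives. Every member was tested, whatever its values, and some are given only within the counts and medians of their group. Members, gene lists, and comparisons of related genes were chosen with earlier results of these data known. At 120 hpf arrays with the same replicate number deviated together (r = 0.548, 0.434, and 0.268), which met the criterion for pairing at that stage. The block was run as an alternative at both stages. The Pb tests, standard errors, and intervals given for 120 hpf are those of the fit without the block. Their spread is therefore not that of the paired contrast.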

Additional observations from a re-analysis of the deposited data

How the results depend on the processing

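The number of targets called between stages depended on the processing, and so did the calls of single members, that of crygn1 the least. In controls, 1765 targets were called (3 members). Values kept as deposited gave 499 targets (1 member), median centering 1082, and array weights 13841 (16 members). Only the arrays compared gave 3542 (7 members), and the methods' t-test gave 596 after Benjamini-Hochberg. Leaving out each array in turn gave 747 to 2302 targets and 2 to 4 members. With Pb, 1101 targets were called (2 members), against 366 (1 member) as deposited, 364 (1 member) with only the arrays compared, 24 (0 members) by the methods' t-test, and 580 to 1363 targets (1 to 3 members) with an array left out. The cause of these differences was not tested.

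The crygn1 rise in controls passed the threshold under all 24 alternatives (log2 2.6 to 2.98), and with Pb under 23, the exception being the methods' t-test (adjusted p = 0.0509). The rdh8b rise was lost in controls with the deposited values (0.87, limma adjusted p = 0.326) and the methods' t-test (0.0636), and with Pb it was lost under 4 alternatives. The crybgx call was lost under 9 of 24. In controls some members passed only under an alternative: sagb under 5 and lim2.5 under 3 (0.81 and 0.66, limma adjusted p = 0.0316 and 0.0472 with cyclic loess). So did opn6a, rbp5, and crygm2d4 under 2 each, and others with array weights alone. With Pb, opn6a, rbp5, and crybgx passed under 1 each. With the 12 arrays as units, the pairing is set aside. The exact permutation p, adjusted over the 11 pairs, was then 0.0119 for both crygn1 less crygn2 and rdh8b less rdh8a. With means of same-numbered arrays as units, it was 0.367 for both (2.35 and 0.96, unadjusted 0.1). Without pair 3, with fewer arrays, the differences were 2.37 and 0.93 (exact permutation adjusted p = 0.157 for both).

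Signs turned for the Pb effect on crygm2d4 at 120 hpf with only its 2 probes within 500 nt of the last one (0.07). They also turned for the stage change of guca1ab.1 with Pb on deposited values (-0.08). The same held for lim2.3 less lim2.5 (0.04 on deposited values and with median centering, 0.01 without pair 3, and -0.02 to 0.02 with an array left out). It held as well for saga less sagb (0.15 with median polish, 0.04 without pair 3, and -0.15 to 0.04 with an array left out). Of 190 member values in 5 comparisons, 119 were smaller than their standard error and were summarized apart. Of these, 92 changed sign under some alternative and 0 passed the threshold. The median Pb effect on the gamma M2d crystallins ranged from -0.46 to 0.15 at 72 hpf and from -0.57 to -0.15 at 120 hpf.

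With the replicate number as a block, fixed or random, no target was called for Pb at either stage (0 and 0; unadjusted p under 0.05 for 1710 or 1780 targets at 72 hpf and 381 or 379 at 120 hpf). Stage counts with the fixed or the random block were 1963 or 1746 in controls and 1204 or 1175 with Pb. As without the block, 3 and 2 members were called. For the stage counts the fixed block joined arrays of one number across both stages, a link that the labels do not give. The random block joined only arrays of one number at one stage. At 72 hpf the correlations of same-numbered arrays were 0.452, 0.402, and -0.069, so the criterion for pairing was not met there.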
